A study of Homo sapiens with 9 samples.

Results

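KISS1, IL24, IL11 and PLTP are 4 genes for secreted proteins, and they make up 4 of the 32997 genes in the deposited table. They were chosen on measured values, because each lay on the same side of the empty vector in both overexpression groups. Their levels and their differences from the vector are therefore given as a description, and counts of members past a threshold in those comparisons are no evidence for them. The RNA came from ES-2 cells, an established human ovarian cancer line, grown in RPMI-1640 medium with 10% fetal bovine serum and given no further treatment. There were 3 groups of 3 libraries: cells carrying the empty vector, cells expressing OTUB2 and cells expressing SNX29P2. OTUB2 encodes a deubiquitinating enzyme, SNX29P2 is a pseudogene of the sorting nexin gene SNX29, and the series title links OTUB2 silencing in ovarian cancer with mitochondrial metabolism and CA9. Which promoter drives the expressed genes, and whether a group is a pool of cells or 1 clone, is not given in the labels. The labels also leave unsaid whether the 3 libraries per group are separate cultures. A p-value here thus measures the spread among the libraries alone, and that spread may be technical.

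KISS1 encodes the precursor of the kisspeptins, peptides that act on a G protein-coupled receptor. It was first described as a suppressor of melanoma metastasis and is abundant in the placenta. IL24 encodes a cytokine of the IL-10 family, also known as MDA-7, which signals through receptor pairs built from IL20RB with IL20RA or with IL22RA1, and from there through JAK kinases and STAT3. IL11 encodes a cytokine of the IL-6 family, which binds IL11RA and then the shared signalling chain IL6ST, also known as gp130, and again reaches STAT3. PLTP encodes phospholipid transfer protein, a plasma protein of the LBP and BPI family that moves phospholipids between lipoproteins, remodels high density lipoprotein (HDL) and is a known target of the oxysterol receptors LXR.

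On GRCh38, KISS1 lies on the minus strand at chr1:204190341-204196486 with 709 exonic bases in 3 merged exon blocks, and IL24 on the plus strand at chr1:206897443-206904139 with 1979 exonic bases in 7 blocks. The pair are 2.70 Mb apart. IL11 lies on the minus strand at chr19:55364389-55370463 with 2671 exonic bases in 5 blocks, and PLTP on the minus strand at chr20:45898621-45912155 with 2541 exonic bases in 17 blocks. GENCODE release 29 lists all 4 as protein coding at the same starts and ends. Of the exonic bases of PLTP, 200 (7.87%) also belong to CTSA, the gene of a lysosomal protease on the opposite strand, and whether reads were counted by strand is not given in the labels.

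The 250 bases before each start site are shown because the 4 genes form 1 set and because their start regions share a feature at a like distance. They are the reference sequence of RefSeq on GRCh38.p14, 5′ to 3′ on the strand of the gene, and end at the base before the start. Capitals mark matches on either strand to TATANA, the letters of a TATA box, and to TGANTCA, the letters bound by AP-1 factors. These motifs were chosen after the sequences were seen. The windows are chr1:204196492-204196741 (minus) for KISS1, chr1:206897193-206897442 (plus) for IL24, chr19:55370464-55370713 (minus) for IL11 and chr20:45912156-45912405 (minus) for the outer of the 2 starts of PLTP.
KISS1: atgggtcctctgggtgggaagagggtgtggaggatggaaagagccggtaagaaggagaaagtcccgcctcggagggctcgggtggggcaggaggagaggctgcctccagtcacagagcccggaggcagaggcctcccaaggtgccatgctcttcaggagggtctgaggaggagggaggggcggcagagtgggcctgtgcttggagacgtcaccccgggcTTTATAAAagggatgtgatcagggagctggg
IL24: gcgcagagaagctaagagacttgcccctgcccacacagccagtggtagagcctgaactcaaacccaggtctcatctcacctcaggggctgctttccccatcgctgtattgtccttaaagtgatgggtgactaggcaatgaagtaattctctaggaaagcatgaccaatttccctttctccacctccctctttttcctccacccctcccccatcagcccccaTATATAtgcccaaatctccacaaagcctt
IL11: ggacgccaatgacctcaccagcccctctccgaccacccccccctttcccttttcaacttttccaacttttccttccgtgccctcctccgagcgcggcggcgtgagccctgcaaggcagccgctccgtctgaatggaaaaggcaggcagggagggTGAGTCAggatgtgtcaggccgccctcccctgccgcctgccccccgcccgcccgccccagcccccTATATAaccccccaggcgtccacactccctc
PLTP: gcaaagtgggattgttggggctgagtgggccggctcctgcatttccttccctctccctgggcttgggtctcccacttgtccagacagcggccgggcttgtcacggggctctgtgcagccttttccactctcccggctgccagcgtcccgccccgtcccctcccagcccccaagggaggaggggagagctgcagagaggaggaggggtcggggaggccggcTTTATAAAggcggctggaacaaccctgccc

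Each of these windows holds a TATANA match shortly before the start. Its first base lies 31 and 29 bases before the start of KISS1, in overlapping matches on both strands, 29 before that of IL24, 31 before that of IL11, and 30 and 28 before that of PLTP, again in overlapping matches. A TATANA match anywhere in the 250 bases occurred in 17.7% of the 35116 RefSeq windows of this length, and 1 with its first base 31 to 28 bases before the start occurred in 2.8%. That range of positions is the span of the members' own matches, so the 2.8% is a description and no test of them. The inner start of PLTP, with the window chr20:45910995-45911244, had no match to TATANA or TGANTCA. The AP-1 letters TGANTCA occurred in 6.57% of all windows and, among the members, in the IL11 window as TGAGTCA with its first base 96 before the start. The IL11 window also held 4 matches to the GC box GGGCGG, 77 to 45 bases before the start, a motif found in 42.6% of windows. KISS1 had 1 GGGCGG match at 73 bases and the outer start of PLTP had 1 at 104 bases. The letters CCAAT, found in 32% of windows, occurred at 87 bases before IL24 and at 245 bases before IL11. The letters of a CRE (TGACGTCA, 1.65% of windows), of a STAT site (TTCNNNGAA, 6.57%) and of the HIF core (ACGTG, 18.5%) were not matched in these windows, with all motifs searched on both strands. A match describes letters and not a bound site.

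Depth per library was 38.5 to 48.6 in units of 1000000 reads in genes. Values are RPKM, reads per kilobase of exonic length and per 1000000 reads, so levels can be compared between genes. OTUB2 stood at 37.6, 42.6 and 38.4 RPKM in the libraries labelled OTUB2 against means of 1.17 ± 0.133 in the vector group and 1.24 ± 0.300 in the SNX29P2 group (SD, n = 3). SNX29P2 stood at 41.0, 55.1 and 47.6 RPKM in its own group, with 8 reads in all in the vector libraries and 4 in the OTUB2 libraries. Markers of the labelled cell type were mixed: ARID1A and WT1 passed a filter of at least 0.5 RPKM in at least 3 libraries, whereas NAPSA, PAX8 and MSLN did not. Among the markers of other cells, 1 of 7 leukocyte genes passed (CD68), 1 of 5 endothelial genes (CDH5), 2 of 7 trophoblast genes, 2 of 6 keratinocyte genes and 2 of 6 melanocyte genes, and no list had a gene at 0 reads in all 9 libraries. The summed mesenchymal markers, all 5 of which passed, ranged from 1249 to 1309 RPKM in the vector group. With OTUB2 the sum was 1088 to 1197 RPKM and with SNX29P2 it was 1112 to 1153 RPKM. The sum was thus lower where KISS1 and PLTP were lower, and its part in those values was not tested. A sum is carried by its most abundant genes, and the list did not move as 1. By gene, 2 of the 5 were higher and 3 lower with OTUB2, and 3 higher and 2 lower with SNX29P2. The summed epithelial markers ranged from 254 to 288, 278 to 286 and 247 to 270 RPKM in vector, OTUB2 and SNX29P2 libraries. Of the 6 epithelial genes measured, 3 passed the filter, and EPCAM, KRT19 and CLDN4 did not. The summed ovarian markers ranged from 8.09 to 9.24, 7.16 to 8.03 and 7.75 to 8.74 RPKM. The summed trophoblast markers ranged from 1.66 to 1.97 RPKM in the vector group, 1.09 to 3.57 with OTUB2 and 1.29 to 2.55 with SNX29P2. The same filter kept 16533 genes for testing, all 4 members among them.

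KISS1 RNA was low in all libraries and lower in the cells expressing OTUB2 or SNX29P2. It stood at 5.85, 7.99 and 5.53 RPKM in the vector libraries, from 177, 218 and 162 reads. With OTUB2 it stood at 1.40, 1.63 and 3.18 RPKM, from 42, 56 and 90 reads. With SNX29P2 it stood at 2.83, 1.70 and 2.09 RPKM, from 92, 48 and 70 reads. All 3 vector libraries lay above all 6 others, and the OTUB2 and SNX29P2 libraries overlapped each other. The group means were 6.45 ± 1.34, 2.07 ± 0.969 and 2.21 ± 0.576 RPKM (SD, n = 3). On the log2(RPKM + 0.1) scale the fitted difference from the vector was −1.67 (SE 0.293) with OTUB2 and −1.52 (SE 0.293) with SNX29P2, and the mean of the 6 overexpression libraries was 3.02-fold below that of the vector. Among the 16533 genes ranked from the lowest difference, KISS1 was at place 20 with OTUB2 and at place 27 with SNX29P2. The third OTUB2 library was the highest of its group: its counting interval of 2.56 to 3.91 RPKM (95%, exact Poisson, counting error only) did not meet the 1.01 to 1.89 of the first. In a bulk sample, fewer cells that express a gene and less of its RNA per cell cannot be told apart.

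IL24 lay on the other side, with more RNA in both overexpression groups. Its vector libraries stood at 3.34, 4.42 and 2.86 RPKM, from 282, 337 and 234 reads. The OTUB2 libraries stood at 9.40, 8.07 and 5.61 RPKM, from 789, 775 and 443 reads, and the SNX29P2 libraries at 7.88, 7.79 and 5.84 RPKM, from 715, 616 and 545 reads. Every overexpression library lay above every vector library, and the overexpression groups overlapped each other. Mean levels were 3.54 ± 0.800, 7.69 ± 1.92 and 7.17 ± 1.16 RPKM for vector, OTUB2 and SNX29P2 cells (SD, n = 3). The fitted log2 difference from the vector was 1.09 (SE 0.214) with OTUB2 and 1.01 (SE 0.214) with SNX29P2, and the ratio of the 6 overexpression libraries' mean to the vector mean was 2.10. From the highest difference down, IL24 was at place 79 with OTUB2 and at place 96 with SNX29P2. With these shifts the order of KISS1 and IL24 turned around: KISS1 was the higher of the pair in every vector library and IL24 in every overexpression library.

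IL11 was the member with the widest spread, and its groups overlapped. The vector libraries stood at 13.8, 29.2 and 13.6 RPKM, from 1569, 3000 and 1497 reads. With OTUB2 the values were 9.70, 21.6 and 9.94 RPKM, and with SNX29P2 they were 8.54, 19.7 and 10.1 RPKM. In each group the library numbered 2 was the highest, and the libraries numbered 2 of the overexpression groups stood above the vector libraries numbered 1 and 3. Group means were 18.8 ± 8.95, 13.7 ± 6.80 and 12.8 ± 6.03 RPKM for vector, OTUB2 and SNX29P2 (SD, n = 3). The fitted log2 difference from the vector was −0.46 (95% interval −1.39 to 0.48) with OTUB2 and −0.56 (−1.49 to 0.38) with SNX29P2. These intervals come from a fit with group as the only term, so they carry the spread between the library numbers. Without the vector library numbered 2 these differences shrank to −0.10 and −0.19. Without the OTUB2 library numbered 2 the OTUB2 difference was −0.84, and without the SNX29P2 library numbered 2 the SNX29P2 difference was −0.91. With all 3 libraries numbered 2 left out, the differences were −0.47 and −0.55.

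The libraries numbered 2 stood apart for IL11 in a like proportion in each group. The level in number 2 was 2.14 times the mean of numbers 1 and 3 in the vector group, 2.20 times with OTUB2 and 2.11 times with SNX29P2. Of all genes tested, 6.79% were higher in the 3 libraries numbered 2 than in all 6 others, as IL11 was, and 4.6% were lower. For KISS1 the same ratio was 1.40 with the vector but 0.711 and 0.689 in the overexpression groups, for IL24 it was 1.43, 1.08 and 1.14, and for PLTP it was 1.17, 1.12 and 1.07. What the number stands for is not given in the labels.

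PLTP was the most abundant member in the vector group by its mean and the least variable. Its vector libraries stood at 31.1, 33.4 and 26.0 RPKM, from 3377, 3265 and 2730 reads. The OTUB2 libraries stood at 18.6, 21.2 and 19.3 RPKM and the SNX29P2 libraries at 19.1, 20.1 and 18.3 RPKM. The 6 overexpression libraries lay within 18.3 to 21.2 RPKM, all below the lowest vector library, and their groups overlapped each other. Group means were 30.2 ± 3.79, 19.7 ± 1.36 and 19.1 ± 0.892 RPKM (SD, n = 3), and the mean of the 6 overexpression libraries was 0.644 times that of the vector. The fitted log2 difference from the vector was −0.60 (SE 0.0965) with OTUB2 and −0.65 (SE 0.0965) with SNX29P2. CTSA, which shares exonic bases with PLTP, stood at 24.0 ± 2.74, 23.3 ± 1.73 and 22.4 ± 1.87 RPKM in the 3 groups, with log2 differences of −0.03 and −0.10.

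**Figure D1:**
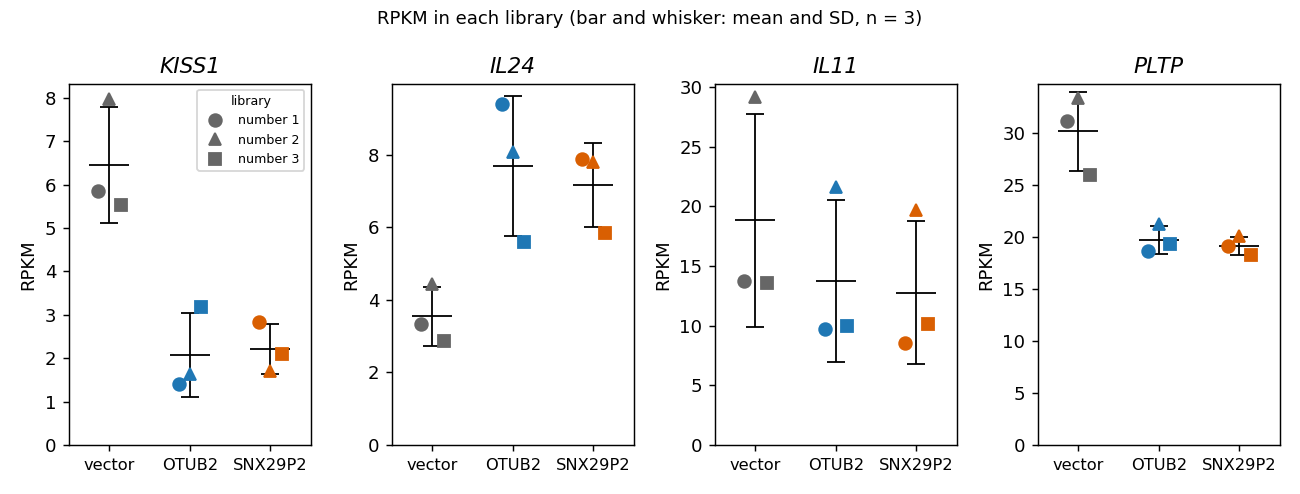
RPKM of KISS1, IL24, IL11 and PLTP (vertical axes, starting at 0) in the 9 libraries, by group; points are libraries, their shapes give the library number, and the bar and whisker are the mean and SD of 3 libraries. The vector libraries lie apart from the 6 others for KISS1, IL24 and PLTP, whereas for IL11 the triangle of number 2 is the highest point of every group.

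The spread behind these values differed between the members. The SD of log2(RPKM + 0.1) within groups was 0.435 for KISS1, where the median of the 1000 genes nearest in level was 0.170, and 0.315 for IL24 against a median of 0.138. For both, 95.6% of the genes of like level had a smaller SD. IL11 had an SD of 0.638 against a median of 0.111, and 99.8% of its genes of like level had a smaller one. PLTP, with 0.127 against 0.105, was nearer the middle, at 65.8%. The members therefore rest on unequal precision: PLTP has the smallest difference among the 3 whose groups lie apart, and also the smallest error.

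Counts of members past a threshold are set beside the same counts over all genes. A gene was called where the Benjamini-Hochberg adjusted p of limma, a linear model that shares information on the spread between genes, was under 0.05. Against the vector, limma called 0 of 4 members with OTUB2, where 0.0181% of all genes were called, and 0 of 4 with SNX29P2, where 0.0363% were. An unadjusted p under 0.05 was reached by 3 of 4 members in each comparison, and by 6.73% and 8.21% of all genes. limma's voom method on reads recovered from the RPKM values called 0 members with OTUB2 and 1, PLTP, with SNX29P2. With both overexpression groups as 1 group against the vector, limma called 1 of 4, PLTP, where 0.0605% of all genes were called, and 3 of 4 had an unadjusted p under 0.05, as did 9.11% of all genes. That call was kept without the third vector library and lost on leaving out any of the other 8 libraries in turn. In the same comparison voom called 2 of 4, KISS1 and PLTP, among 9 of the 16533 genes. Without the third OTUB2 library limma called KISS1 there and not PLTP, among 7 of 16450 genes. The members' libraries lay apart from the vector, higher for 1 and lower for 2 of 4, in both comparisons; over all genes 5.9% were apart and higher and 4.91% apart and lower with OTUB2, and 6.13% and 5.53% with SNX29P2. Apart from the vector in all 6 overexpression libraries at once were the same 3 members, and over all genes 2.46% on the higher side and 2.44% on the lower. Because the members were chosen on these comparisons, the counts say nothing further about them, and both comparisons share the vector libraries.

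The comparison of OTUB2 with SNX29P2 was tested, since the members were not chosen on it directly, although being on the same side of the vector in both groups bears on it. No difference passed the test for any member: limma called 0 of 4, with adjusted p-values of 1.00 for each, 0 of 4 had an unadjusted p under 0.05, and voom called 0. Over all genes 0.0242% were called and 2.43% had an unadjusted p under 0.05. The libraries of the overexpression groups lay apart for 0 of 4 members, and over all genes for 4.3% with OTUB2 higher and 4.05% with OTUB2 lower. The log2 difference, OTUB2 minus SNX29P2, was −0.15 for KISS1 (95% interval −0.80 to 0.51), which leaves room for 0.572 to 1.42 times the SNX29P2 level. It was 0.08 for IL24 (−0.40 to 0.56, or 0.759 to 1.47 times) and 0.04 for PLTP (−0.17 to 0.26, or 0.886 to 1.20 times). For IL11 it was 0.10 with an interval of −0.84 to 1.03, or 0.559 to 2.04 times, the widest of the 4 in this fit. The fit has no term for the library number. With such a term (the replicate block) the SE of IL11 was 0.0626 in place of 0.417, the smallest of the 4. The SE with the block was 0.320 for KISS1, 0.118 for IL24 and 0.0679 for PLTP, and no member was called. The order of the groups was thus vector, then both overexpression groups without a difference beyond their spread for KISS1 and PLTP, and the reverse for IL24. For IL11 the libraries of all 3 groups overlapped. Without the first OTUB2 library the KISS1 and IL24 differences took the other sign, at 0.0747 and −0.0779.

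**Figure D2:**
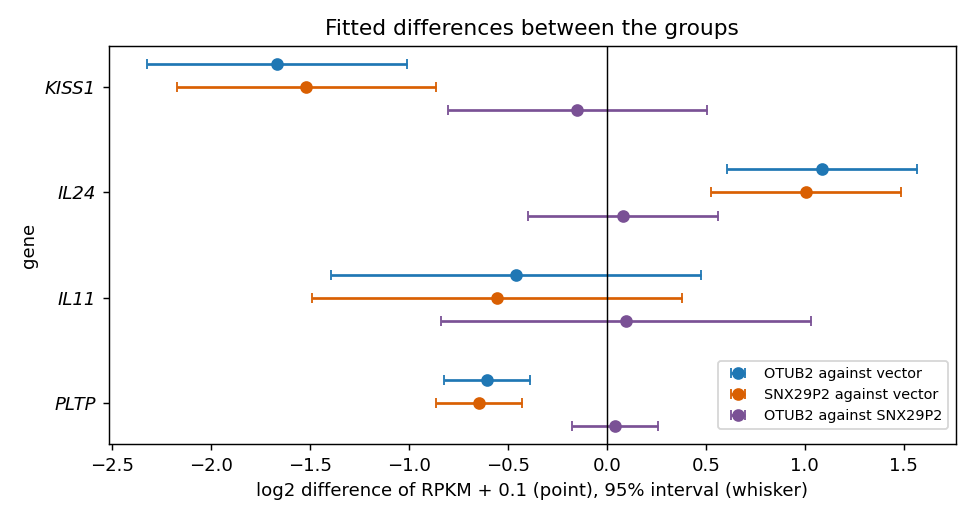
Fitted differences in log2(RPKM + 0.1) (horizontal axis) for each member, as points with 95% intervals, for OTUB2 and SNX29P2 against the vector and against each other. The intervals of OTUB2 against SNX29P2 hold 0 for all 4 genes, and the IL11 intervals hold 0 in every comparison in this fit, which has no term for the library number.

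Related genes were taken from lists of ligands, receptors, signalling genes and targets. The lists were chosen with earlier results of these data known. Across 167 distinct genes of these lists that passed the filter, limma called 0 against the vector with OTUB2, 0 with SNX29P2 and 0 between the overexpression groups; 27 (16.2%), 24 (14.4%) and 7 (4.19%) had an unadjusted p under 0.05, against 6.73%, 8.21% and 2.43% of all genes, and voom called 0 in each. Libraries apart from the vector and lower were found for 21 of the 167 (12.6%) with OTUB2 and 22 (13.2%) with SNX29P2, against 4.91% and 5.53% of all genes. Apart and higher were 7 (4.19%) and 8 (4.79%), against 5.9% and 6.13% of all genes. The median log2 difference over the 167 was −0.04 with OTUB2 and −0.06 with SNX29P2, against 0.01 over all genes in each comparison. None of the genes named from these lists below was called by limma.

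For kisspeptin, the receptor was not analysed here. Among 7 tested genes of related peptides and of the proteases that cut kisspeptin or its precursor, the median log2 difference was 0.06 with OTUB2 and −0.08 with SNX29P2. FURIN, a proprotein convertase, stood at 17.6, 16.4 and 16.0 RPKM in the vector, OTUB2 and SNX29P2 groups (log2 differences −0.10 and −0.13). The matrix metalloproteases MMP14 (59.0, 55.0 and 54.8 RPKM) and MMP2 (26.3, 27.6 and 21.5 RPKM) were abundant. MMP2 had log2 differences of 0.06 and −0.29, and its SNX29P2 libraries lay below those of both other groups. MMP9 had 25 reads in all 9 libraries together. PCSK7, another convertase, had differences of −0.04 and −0.08, MMP16 of 0.07 and 0.22, MMP24 of 0.20 and 0.21 and the neuropeptide gene NPFF of 0.09 and 0.42. Of 18 other metastasis suppressor genes, 9 were higher and 9 lower with OTUB2, and 10 and 8 with SNX29P2. The tetraspanin gene CD82 stood at 1.77 ± 0.411, 0.961 ± 0.138 and 1.03 ± 0.372 RPKM (SD, n = 3), and ARHGDIB at 76.9, 100.5 and 89.4 RPKM, with all overexpression libraries above the vector.

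The receptor chains of the cytokines were unevenly represented. For IL24, IL20RB stood at 2.08 ± 0.182, 2.34 ± 0.119 and 2.12 ± 0.326 RPKM in the vector, OTUB2 and SNX29P2 groups (SD, n = 3), with log2 differences of 0.16 and 0.02. Its partner chains were hardly seen: IL20RA had 4 reads and IL22RA1 had 2 in all 9 libraries together. IL10RB, a chain of other receptors of the family, stood at 2.88, 2.83 and 2.89 RPKM, IL10RA had 52 reads in all, and the related ligand IL20 had 4. For IL11, the binding chain IL11RA had 67 reads in all 9 libraries, a mean of 0.0403 RPKM, and did not pass the filter. The shared chain IL6ST stood at 14.3 ± 1.33, 12.7 ± 1.46 and 14.7 ± 2.20 RPKM (SD, n = 3). These are levels of RNA, and the labels give no measure of the proteins.

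None of the other IL-6 family genes passed the test. LIF, a ligand that also signals through IL6ST, was the most abundant of the 5 tested, at 28.1 ± 4.10, 22.2 ± 2.72 and 22.4 ± 1.92 RPKM (SD, n = 3), and its groups overlapped (log2 differences −0.33 and −0.31). Log2 differences with OTUB2 and SNX29P2 were 0.04 and 0.03 for CLCF1, 0.15 and 0.08 for CNTF, and −0.06 and −0.18 for IL6. Of the receptor genes, IL27RA stood at 2.68 ± 0.172, 2.10 ± 0.125 and 2.21 ± 0.201 RPKM (SD, n = 3), its vector libraries above all 6 others. OSMR, the oncostatin M receptor chain, had log2 differences of −0.20 and −0.14, LIFR of 0.19 and 0.22, and IL31RA of −0.15 and −0.06. IL6R had 360 reads in all and did not pass the filter.

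Downstream of both cytokines, 8 of 20 JAK and STAT signalling genes were higher and 12 lower with OTUB2, and 12 and 8 with SNX29P2, with medians of −0.01 and 0.09. STAT3 itself stood at 5.62, 6.54 and 6.19 RPKM (log2 differences 0.22 and 0.14), and the inhibitor SOCS2 had differences of 0.22 and 0.19. Among 17 STAT3 target genes, 5 were higher and 12 lower in each comparison, with medians of −0.08 and −0.09. The adhesion molecule gene ICAM1, with −0.54 and −0.63, and BIRC5, which encodes survivin, with 0.36 and 0.25, had the smallest p-values of that list with both overexpression groups as 1 group. Of 14 genes of AP-1 subunits and relatives, 6 were higher and 8 lower in each comparison. ATF4, a stress-responsive member of that family, stood at 88.9 ± 1.99, 108.1 ± 7.20 and 110.7 ± 11.2 RPKM (SD, n = 3), its vector libraries below all 6 others, and JUNB at 16.2, 12.1 and 12.1 RPKM. The 19 genes of TGF-beta ligands and targets had medians of −0.02 in each comparison. LTBP2, a binding protein of the matrix, was apart and lower in both groups (log2 differences −0.35 and −0.27), and COL1A1, a collagen chain, had −0.28 and −0.38.

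PLTP was set beside the genes of HDL handling and of LXR. Of 8 genes of HDL apolipoproteins, lipases and transporters, 7 were lower and 1 higher in each comparison, with medians of −0.29 and −0.37 on the log2 scale, where the median over all genes was 0.01. Libraries apart from the vector and lower were found for 4 of the 8 in each comparison, and for 4.91% of all genes with OTUB2 and 5.53% with SNX29P2. LRP1, an endocytic lipoprotein receptor, stood at 2.58 ± 0.767, 1.47 ± 0.243 and 1.55 ± 0.248 RPKM, and LCAT, the enzyme that esterifies cholesterol on HDL, at 1.93 ± 0.328, 1.29 ± 0.219 and 1.39 ± 0.0862 RPKM (SD, n = 3). The HDL receptor SCARB1, at 15.0, 13.2 and 13.2 RPKM, and VLDLR, at 1.96, 1.60 and 1.46 RPKM, were the others; they were named after their values were seen. Of 11 genes of LXR and its targets, 8 were lower and 3 higher in each comparison, with medians of −0.13 and −0.11. NR1H2, which encodes LXR beta, stood at 10.5, 9.18 and 9.01 RPKM, and the fatty acid synthase gene FASN at 82.3 ± 6.72, 70.6 ± 4.09 and 69.5 ± 5.28 RPKM (SD, n = 3), both apart and lower. ABCA1, the cholesterol exporter of both lists, also named after its values were seen, had log2 differences of −0.92 and −0.81, and its groups overlapped. The lowest adjusted p of either list by limma was 0.519 with OTUB2 or SNX29P2 alone against the vector, and these 2 comparisons share the vector libraries. With both overexpression groups as 1 group it was 0.374.

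**Figure D3:**
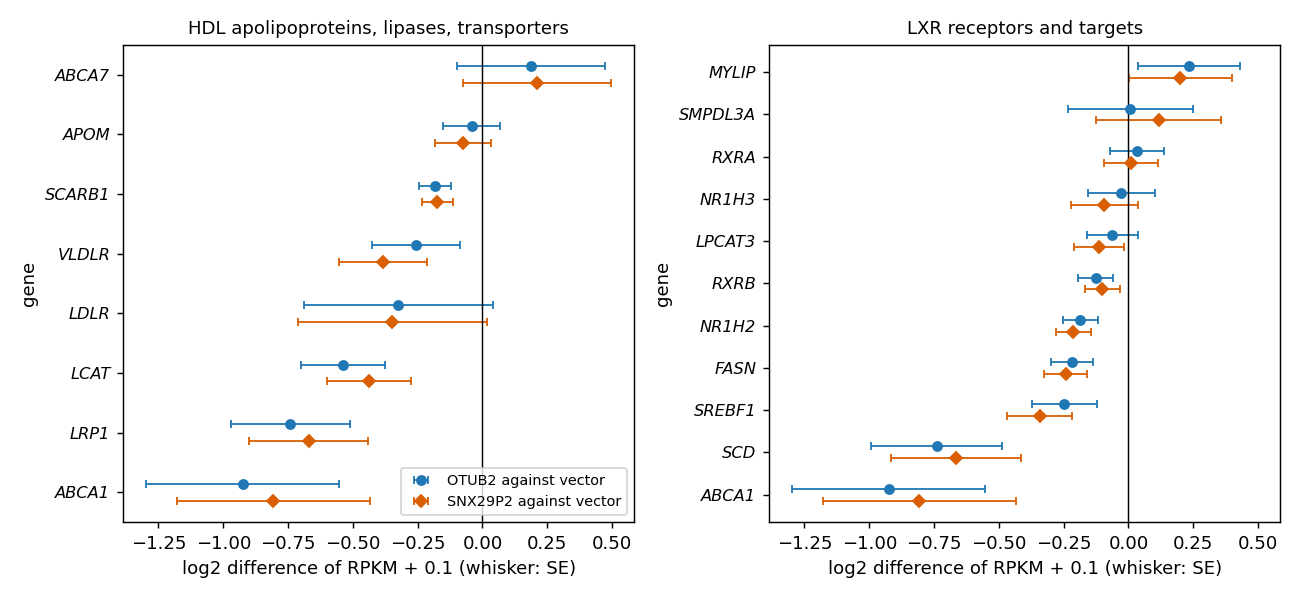
Fitted differences from the vector in log2(RPKM + 0.1) (horizontal axis, whiskers are 1 SE) for the 8 tested genes of HDL handling and the 11 tested genes of LXR and its targets, with OTUB2 (circles) and SNX29P2 (diamonds). Most points lie left of 0 and none of these genes was called.

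Other secreted factors gave the setting for the 4 members. Of 16 further cytokines and chemokines, 4 were higher and 12 lower with OTUB2, and 7 and 9 with SNX29P2. SPP1, which encodes osteopontin, stood at 4.75, 8.32 and 7.51 RPKM, with all overexpression libraries above the vector. The chemokine gene CXCL2 stood at 3.89, 2.32 and 2.97 RPKM. Of 32 secreted growth factors, 12 were higher and 20 lower with OTUB2, and 14 and 18 with SNX29P2. GAS6, a ligand of TAM receptors, stood at 8.42 ± 0.937, 6.58 ± 0.346 and 6.65 ± 0.290 RPKM (SD, n = 3), apart and lower, and DKK3, at 66.9, 49.8 and 48.8 RPKM, overlapped with the vector in the OTUB2 group.

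The neighbouring genes on the chromosomes were the nearest on each side with a mean of at least 0.5 RPKM, and none was called by limma. Beside KISS1, SOX13 at 62.6 kb had log2 differences of −0.02 and 0.05 with OTUB2 and SNX29P2, and PLEKHA6 at 22.4 kb had 0.15 and 0.20. Beside IL24, MAPKAPK2 at 163 kb had −0.05 and −0.10, and PFKFB2 at 130 kb had −0.09 and 0.03. Beside IL11, KMT5C at 16.3 kb had −0.37 and −0.14 (SE 0.187 each), and RPL28 at 14.9 kb had −0.13 and −0.25. Both were below the vector in each comparison, as IL11 was. Over all 16533 genes, 7936 were below it with OTUB2 and 7668 with SNX29P2. Beside PLTP, the row RP3-337O18.9 at 5.20 kb had 0.04 and −0.09, and PCIF1 at 22.5 kb had −0.01 and 0.03.

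Genes with the most similar profiles were found by the root mean square difference of log2(RPKM + 0.1), each gene centred on its mean over the 9 libraries, among 11619 genes with a symbol and a mean of at least 1 RPKM. For KISS1 the nearest were BGN, the gene of the matrix proteoglycan biglycan, at a distance of 0.409, the aldolase gene ALDOC at 0.463 and QPRT, an enzyme gene of NAD synthesis, at 0.533, where the median candidate was at 0.852. BGN stood at 6.24 ± 1.10, 2.26 ± 0.147 and 1.88 ± 0.136 RPKM in the 3 groups (SD, n = 3), much the same levels as KISS1 with a smaller spread. Unlike KISS1, BGN was called by limma against the vector with OTUB2, with SNX29P2 and with both groups together. For IL24 they were the co-chaperone gene DNAJB4 at 0.266, HERPUD1, a gene of endoplasmic reticulum protein degradation, at 0.299 and FOXN3-AS1 at 0.307, with a median candidate of 0.565. FOXN3-AS1 is an antisense gene, and without the strand of the counting its reads cannot be told from those of its partner.

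For IL11 the nearest profiles were those of RELB, an NF-kB subunit gene, at 0.241, CREB3L1, a transcription factor gene, at 0.245 and FSTL3, which encodes a secreted activin antagonist, at 0.253, with a median candidate of 0.586. Each of these genes was also highest in number 2 of every group: RELB stood at 5.01, 3.60 and 3.15 RPKM in those libraries of vector, OTUB2 and SNX29P2, CREB3L1 at 16.4, 10.8 and 11.0 RPKM, and FSTL3 at 15.9, 9.17 and 9.02 RPKM. For PLTP they were the lysosomal glucosidase gene GAA at 0.0803, HOOK2 at 0.0954 and the mitochondrial carrier gene SLC25A23 at 0.0967, with a median candidate of 0.343. GAA stood at 17.6 ± 2.12, 12.0 ± 0.494 and 10.4 ± 0.221 RPKM (SD, n = 3). Against the vector, limma called GAA with SNX29P2 and with both groups together, and not with OTUB2. The 12 genes named here were chosen for their likeness, which is a description over 9 libraries. Each member lay farther from every other member than from its own 3 nearest genes. The closest pair of members, IL11 and PLTP, was at 0.454, KISS1 and PLTP were at 0.582, and KISS1 and IL24 were at 1.34.

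**Figure D4:**
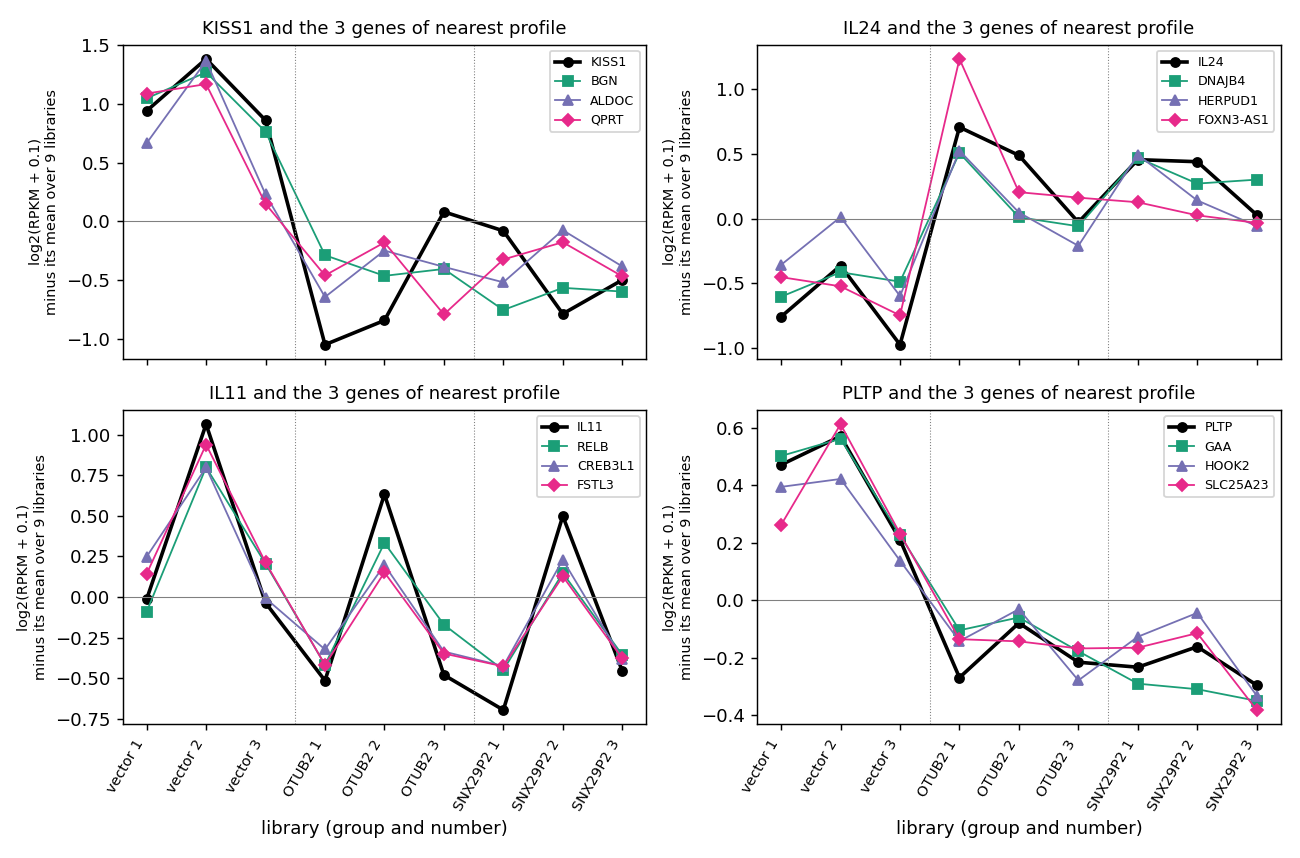
log2(RPKM + 0.1) minus the gene's mean over the 9 libraries (vertical axes) for each member (black) and its 3 genes of nearest profile, by library (horizontal axis; dotted lines part the groups). The KISS1, IL24 and PLTP panels step between the vector and the other libraries, except for HERPUD1, whose groups overlap. The IL11 panel peaks at number 2 in each group.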

How the data were processed

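RNA of 9 libraries was analysed from 1 table of RPKM values that the authors deposited, with gene positions and lengths per the file headers and, per the submitters' processing notes, the build GRCh38. Not given in the sources used here: aligner, counting program and strand setting. Below 1000 reads, 100% of values were whole multiples of 1 read (tolerance 0.05), so reads were recovered (38.5 to 48.6 per library in units of 1000000), with 58.1 to 60.4% of these values even. Reads need not be independent molecules, and intervals cover counting error only. Groups came from the labelled genotype.

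A gene was kept if 3 or more libraries reached 0.5 RPKM. limma 3.58.1 (R 4.3.3) with a variance trend was fitted to log2(RPKM + 0.1) of the 9 libraries, with no term but group, two-sided, with Benjamini-Hochberg adjustment over 16533 genes. Fold changes on that scale understate those of low genes. The programs were tested on simulated data. Plots were drawn with matplotlib 3.10.9, and tables were handled in python 3.11.15 with numpy 2.4.6 and pandas 2.3.3. Libraries with the same number deviated together in OTUB2 and SNX29P2 (correlations 0.270, 0.259 and 0.153 for the 3 numbers), so for that comparison the numbers pair the samples; the replicate block changed no call of a member there.

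The members and lists were chosen with earlier results of these data known. Named genes are the members and transgenes, all tested genes of the cytokine and receptor lists, the 2 genes of smallest p (both overexpression groups against vector) in every other list, neighbours and the 3 nearest profiles. Of 338 list entries 288 were matched, 1 through another symbol, and 50 were not analysed here; a few other list genes are not reported here. Values were also computed with a pseudocount of 0.01 or 1, with no filter, a stricter filter (6 libraries at 1 RPKM), median-of-ratios scaling, voom on recovered reads, a replicate block and each library left out; leaving out the 3 libraries numbered 2 was added after seeing the data.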

Additional observations from a re-analysis of the deposited data

Results flagged for a closer look

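The expressed genes differed between the overexpression groups, each being high in its own group only, as the labels say: the log2 difference, OTUB2 minus SNX29P2, was 4.91 for OTUB2 and −8.72 for SNX29P2. No member was picked out in this way.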

How the results depend on the processing

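Under alternatives, 272 values of the members were computed. Many could not change, since the filters and the replicate block leave the fitted difference as it is. Leaving out a library outside the comparison also leaves it as it is. Of the 272, these among them, 264 kept their direction and 8 reversed, all in OTUB2 against SNX29P2 on leaving out 1 library. In that comparison the log2 difference ranged from −0.49 to 0.0747 for KISS1, from −0.0779 to 0.29 for IL24, from −0.28 to 0.45 for IL11 and from −0.0123 to 0.0825 for PLTP. The reversals were 0.0747 and 0.0393 for KISS1, −0.0779 and −0.0588 for IL24, −0.28, −0.14 and −0.0220 for IL11, and −0.0123 for PLTP. Counts of genes called by limma were 3 for OTUB2, 6 for SNX29P2, 4 between them and 10 for both groups together. With no filter OTUB2 gave 7. With the filter of 1 RPKM in 6 libraries, which tests fewer genes, SNX29P2 gave 1, OTUB2 against SNX29P2 gave 1 and both together gave 3. voom gave 10 for SNX29P2. Leaving out 1 library gave 1 to 7 for OTUB2, 1 to 7 for SNX29P2, 1 to 5 between them and 3 to 10 for both. Without the 3 libraries numbered 2, limma gave 1, 0, 1 and 1, with 738, 684, 319 and 882 genes at an unadjusted p under 0.05, from fewer samples by construction. Otherwise the cause was not tested.

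Vector libraries were not taken as paired with the others, since not every pair's correlation of deviations passed 0.1. For numbers 1, 2 and 3 it was 0.0506, 0.193 and 0.139 with OTUB2 and −0.0178, 0.151 and 0.104 with SNX29P2. Those of numbers 2 and 3 lay above all pairs of different numbers, which gave −0.230 to 0.0502. With the replicate block the counts were 4, 9, 4 and 22. For IL11 the block left the differences from the vector at −0.46 and −0.56 and changed their SE from 0.417 to 0.0626; the ratios to the vector library of the same number were 0.705, 0.740 and 0.733 with OTUB2 and 0.621, 0.675 and 0.746 with SNX29P2. The block called PLTP with SNX29P2, and 3 of 4 members with both groups together, against 0 and 1 without it; as the members were chosen on these comparisons, no p-value is given for them. The call of PLTP in both groups together was lost with no filter, with the stricter filter and without the libraries numbered 2, and kept with voom, median-of-ratios scaling, the block and both pseudocounts. At 42 to 218 reads per library, counting error limits KISS1 most.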
